A study of Temnothorax americanus and Temnothorax ambiguus and Temnothorax curvispinosus with 48 samples.

Results

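Temnothorax pilagens is a slavemaking ant, and the comparison described here set its workers during a raid against its workers outside the raiding season. It rested on 7 of the 48 RNA libraries of the series, chosen by their labels: raiding libraries DR_684, DR_685 and DR_686 against non-raiding libraries BR_680, BR_681, BR_682 and BR_683. An additional raiding library, DR_687, which the study set aside as outlying, was kept out of the comparison and used as a check. The series holds 3 slavemaker and 3 host species, each with raiding and non-raiding libraries, and read-outs are counts of reads per assembled contig. Each library pooled RNA of whole bodies from 6 workers, 2 from each of 3 colonies of a Michigan population, and the same colonies entered the pools of both states. Raiders were taken while fighting outside a nest of the host T. ambiguus during staged raids in laboratory arenas in summer. The labels call the other slavemaker state before the raid, while the study's methods describe workers collected in autumn, after the raiding season, so season and state cannot be told apart. Ovaries were inspected so that slavemaker workers in the pools were infertile. Colonies came from the field, were kept in the laboratory on honey and crickets, and no allele or drug is described for either state. They were moved to warmer conditions before the raids, and again before the autumn sampling so that conditions matched. The study gives a longer lead for this move before the autumn sampling than before the start of the raids.

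Slavemaking ants are social parasites whose workers raid the nests of related species and carry off brood. The stolen brood grows into workers that forage, nurse and feed the colony of the parasite, so slavemaker workers do little besides scouting and raiding and are fed by their slaves. Ants tell nestmates from strangers by hydrocarbons on the cuticle, which are built in oenocytes and carried to the surface. Their synthesis runs from fatty acid synthase through elongases and desaturases to fatty acyl-CoA reductases, and ends with a cytochrome P450 of the 4G family, a chain known best from Drosophila.

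The state of each library was taken from its title and behaviour label, and no gene in the counts checks it. Some contigs are named for a library number, after an assembly step that joined the reads of 2 libraries of 1 state or of 1 library of each state. Of 5237 Sample_684 contigs with any counts, 1478 had their highest CPM (counts scaled to a common library total) in DR_684 and 1282 in DR_685. Of 3969 Sample_680 contigs, 1051 peaked in BR_681 and 1050 in BR_680. The other sets peaked most in a library of each state: of 3505 Sample_682 contigs, 1098 did so in DR_686 and 862 in BR_682, and of 3825 Sample_683 contigs, 1348 in DR_687 and 1065 in BR_683. Contig names also carry the tags smadr (Sample_680, Sample_682 and Sample_683) and smifors (Sample_684), which no source explains and which were not used.

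The 8 libraries held 14483620 to 18756139 counts over 48783 contigs, of which 44203 to 45575 had at least 1 count in a library. At this depth 1 CPM stands for about 15 to 19 counts. Spearman correlations of log2 CPM were 0.857 to 0.874 between raiding libraries and 0.853 to 0.868 between non-raiding ones, and 0.836 to 0.845 across states. DR_687 correlated at 0.861 to 0.867 with the raiding libraries and at 0.838 to 0.856 with the non-raiding ones, highest with BR_683. Its 100 most abundant contigs took 30.8% of its counts, against 25.6 to 27.3% in the other libraries.

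Raiding and non-raiding workers differed in 1105 of 38402 tested contigs, 2.88% of them, by edgeR's quasi-likelihood test with Benjamini-Hochberg adjustment at 0.05. In raiding workers 361 contigs rose (0.940% of those tested) and 744 fell (1.94%). The states did not overlap in CPM for any of the 1105 called contigs. The same held for 6630 of all tested contigs (17.3%), so for a called contig this adds nothing to its call. Contigs that rose changed by 0.76 in the median (log2 fold change, raiding over non-raiding), and 242 of the 361 changed by less than 1 log2 unit. Those that fell had a median of -1.02, and 67 of the 744 fell by more than 3 log2 units, against 17 that rose by as much. The summed level of the risen contigs was 99181, 94136 and 86408 CPM in raiding libraries, against 50307, 53492, 53383 and 54887 CPM in non-raiding libraries. The fallen contigs summed to 44056, 47614 and 47766 CPM in raiding libraries, against 89397, 98907, 99481 and 92944 CPM in non-raiding libraries. The counts of calls depended on single libraries: 248 contigs were called without DR_684, 351 without BR_681, 420 without DR_685, 452 without BR_682 and 715 without BR_680, against 753 and 823 without DR_686 and BR_683. A set of 202 contigs, 159 of them lower and 43 higher in raiding workers, kept its call without each of the 7 libraries in turn, and no called contig changed sign in any of these fits. Replicates of a state are separate pools of workers, and p-values measure the spread between such pools. The fit did not pair libraries, although the same colonies entered the pools of both states. With libraries paired across states by order of number, 96 contigs were called (13 higher and 83 lower), and 738 with DR_687 added.

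Library DR_687, which took no part in the calls, lay on the raiding side of the non-raiding mean for 1086 of the 1105 called contigs (98.3%, exact 95% interval 97.3 to 99.0%). Over all tested contigs the share was 67.7%. It lay there for 353 of 361 risen contigs and for 733 of 744 fallen ones. By a stricter measure, nearer to the raiding than to the non-raiding mean, the shares were 90.05% of called contigs and 56.7% of all tested contigs. The size of its difference was also that of the fitted libraries: the median over risen contigs was 0.75 log2 units in DR_687 and 0.74 in the mean of the other raiding libraries, and over fallen contigs -0.96 and -1.01. Intervals on these shares cover counting error only, and contigs of 1 library are not independent. All of these measures use the mean of the non-raiding libraries that also made the calls. Only the DR_687 value itself was held out, so the measures are not fully independent of the calls. The plot of called contigs in DR_687 shows the single points.

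**Figure D1:**
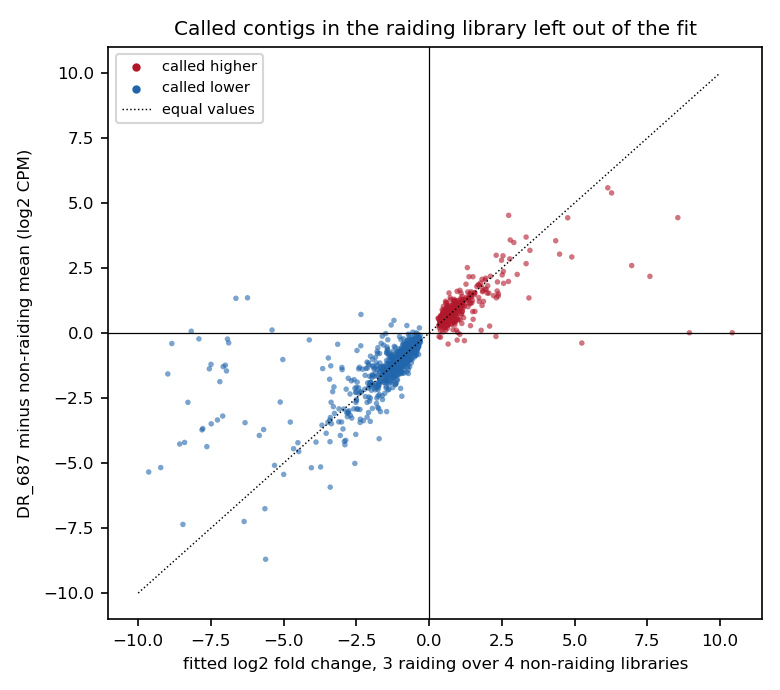
Each point is 1 of the 1105 called contigs. The horizontal axis is the fitted log2 fold change of 3 raiding over 4 non-raiding libraries and the vertical axis is the log2 CPM of DR_687 minus the mean of the non-raiding libraries, with equal values on the dotted line. Points of 353 of the 361 risen contigs lie above 0 and points of 733 of the 744 fallen contigs lie below 0.

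Protein names come from the best match that the authors gave, and only contigs that the study itself had called on the same libraries were annotated. The annotation lists 1616 contigs, of which 901 have a match. Of these, 860 passed the filter on low counts and 557 (64.8%) were called. In raiding workers 154 matched contigs rose (17.9%) and 403 fell (46.9%). Their log2 fold changes had a median of -0.77, against 0.02 over all 38402 tested contigs. A count within a group of proteins therefore has to be read against 17.9% and 46.9%, and is not independent evidence of its direction. The match named a protein for 508 of the tested contigs, mostly from the ants Acromyrmex echinatior and Solenopsis invicta, and the names carry the numbering of the matched species. Among the 1105 called contigs, 548 had no match and remain unnamed. Contigs that share a name can be parts, alleles or near copies of 1 gene, so that reads may be split among them. Contig identifiers are shortened here to the part after the assembly's name, so that c and rep_c stand for contigs of the joint assembly and Sample_682 for a contig named for BR_682. The plot of the protein lists gives the log2 fold change of every tested member. CPM are not divided by contig length, so CPM of different contigs do not rank their abundance per length.

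**Figure D2:**
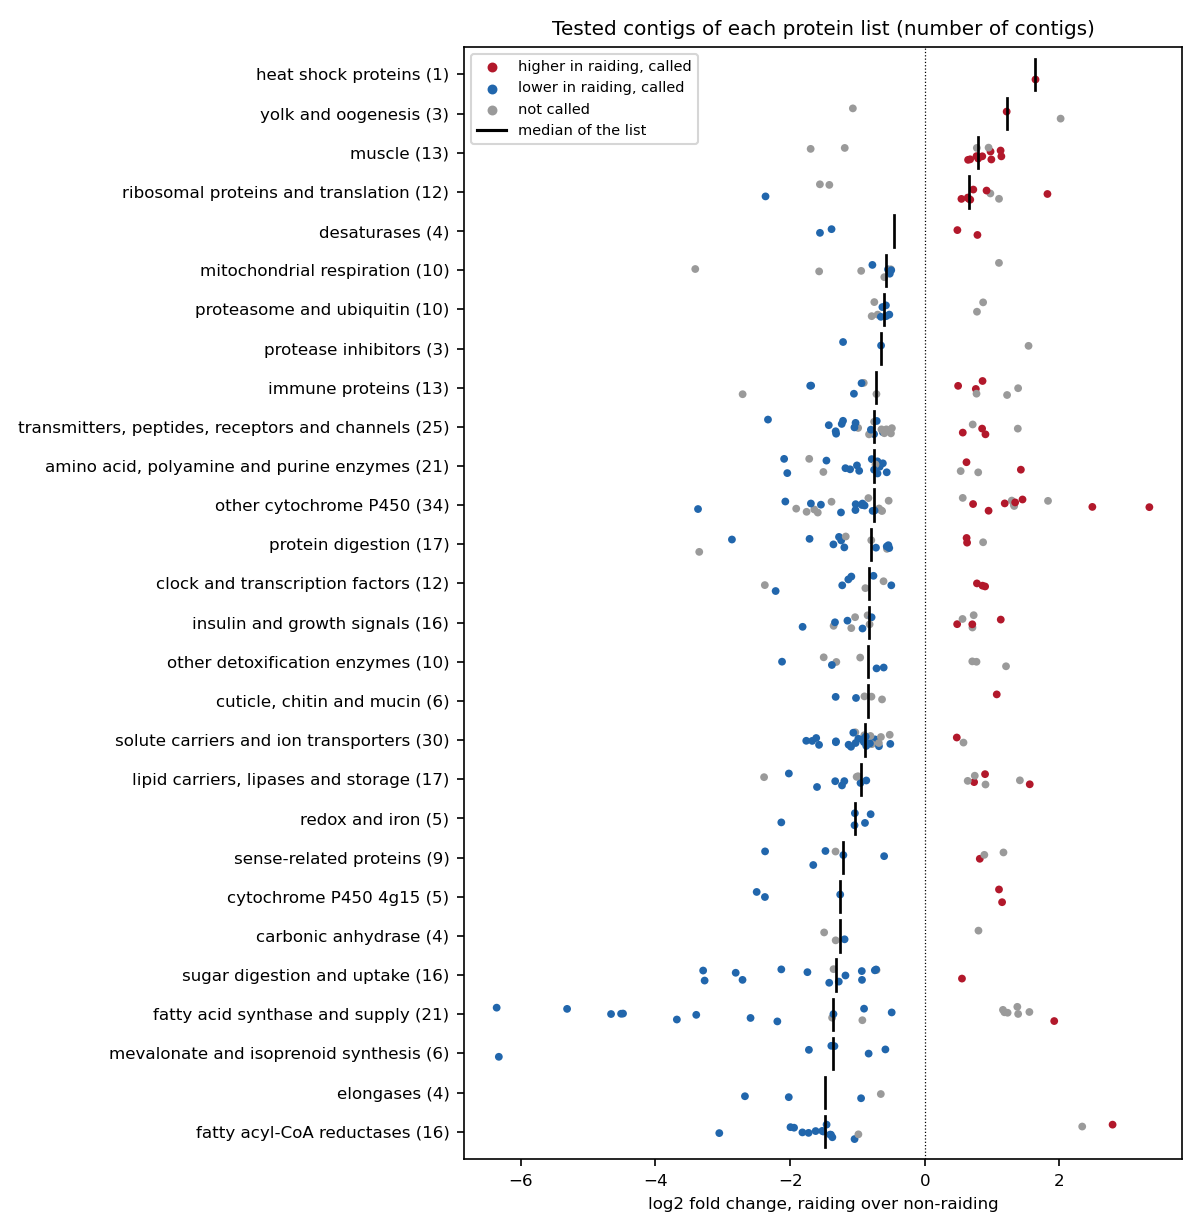
Each point is a tested contig of 1 of the 28 protein lists, placed by its log2 fold change, raiding over non-raiding (horizontal axis), with the number of tested contigs after the name of the list. Red and blue points passed the test as higher and lower in raiding workers, grey ones did not, and black bars are list medians, which lie above 0 for heat shock, yolk and oogenesis, muscle, and ribosomal proteins and translation and below 0 for the other 24 lists.

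Within the chain from fatty acids to cuticular hydrocarbons, contigs of fatty acid synthase, reductases and elongases mostly fell in raiding workers. Those of desaturases and cytochrome P450 4g15 went both ways. In whole bodies, fewer cells of a type and less RNA per cell cannot be told apart. Fatty acid synthase, which builds fatty acids from malonyl-CoA, was matched by 19 tested contigs, of which 10 fell and 1 rose. Its most abundant contig, rep_c8139, had 1201, 986 and 1208 CPM in the raiding libraries, against 2554, 3039, 3422 and 2576 CPM in the non-raiding libraries (log2 fold change -1.36 ± 0.14 SE, adjusted p = 0.0047). The states did not overlap, and DR_687 had 915 CPM, below every non-raiding library. Contig rep_c8159 had 34.8, 32 and 44.7 CPM in the raiding libraries, against 517, 1170.0, 1092 and 975 CPM in the non-raiding libraries (log2 fold change -4.66 ± 0.32 SE, adjusted p = 0.00122). The largest fall among called contigs that name a protein and average at least 5 CPM was that of fatty acid synthase rep_c23564, with 0.257, 1.82 and 4.95 CPM in the raiding libraries, against 93.7, 195, 264 and 183 CPM in the non-raiding libraries (log2 fold change -6.36 ± 0.77 SE, adjusted p = 0.00871), and 1.01 CPM in DR_687. Each of these 3 contigs kept its call without each library in turn. For other contigs, a range beside such a statement is that of the log2 fold change over the 7 fits, each with 1 library left out. Long-chain fatty acid transport protein 4 (rep_c5481), which takes up and activates fatty acids, averaged 224 ± 14.8 CPM in 3 raiding and 418.5 ± 16 CPM in 4 non-raiding libraries (SD, log2 fold change -0.90 ± 0.08 SE, adjusted p = 0.00233). Over the list of fatty acid synthase and its supply, 12 of 21 contigs fell (57.1%) and 1 rose (median -1.36). Of all matched contigs 46.9% fell and 17.9% rose. The count of fallen contigs in the list was 9 to 13 without each library in turn.

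Fatty acyl-CoA reductases, which turn fatty acyl-CoA into alcohols, fell in 13 of 16 contigs (81.2%, median -1.48) and rose in 1. Of all matched contigs 46.9% fell and 17.9% rose. Reductase rep_c2187 had 71.5, 78.4 and 103 CPM in the raiding libraries, against 565, 804, 823 and 602 CPM in the non-raiding libraries (log2 fold change -3.05 ± 0.20 SE, adjusted p = 0.00104). No raiding library came near the lowest non-raiding one, and DR_687 was lower still at 44.8 CPM. A further reductase, rep_c12896, averaged 105 ± 11.3 CPM in 3 raiding and 346 ± 38.5 CPM in 4 non-raiding libraries (SD, log2 fold change -1.73 ± 0.12 SE, adjusted p = 0.00112). The fallen reductases numbered 8 without DR_684 or DR_685, and 10 to 12 without each of the others. All 4 contigs of elongases, which lengthen fatty acids, had negative fold changes and 3 of them fell. Elongase rep_c31317 had 65.1, 69 and 79.6 CPM in the raiding libraries, against 245, 302, 311 and 297 CPM in the non-raiding libraries (log2 fold change -2.02 ± 0.12 SE, adjusted p = 0.00104). For elongase rep_c5002 the values were 14.6, 22.5 and 24.9 CPM in raiding and 106, 139, 141 and 139.7 CPM in non-raiding libraries (-2.67 ± 0.20, adjusted p = 0.00166), and for elongase Sample_682_893 they averaged 79.5 ± 11.8 CPM in 3 raiding and 153 ± 12.6 CPM in 4 non-raiding libraries (SD, -0.95 ± 0.12, adjusted p = 0.00909). The elongase calls numbered 3 without each library in turn.

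**Figure D3:**
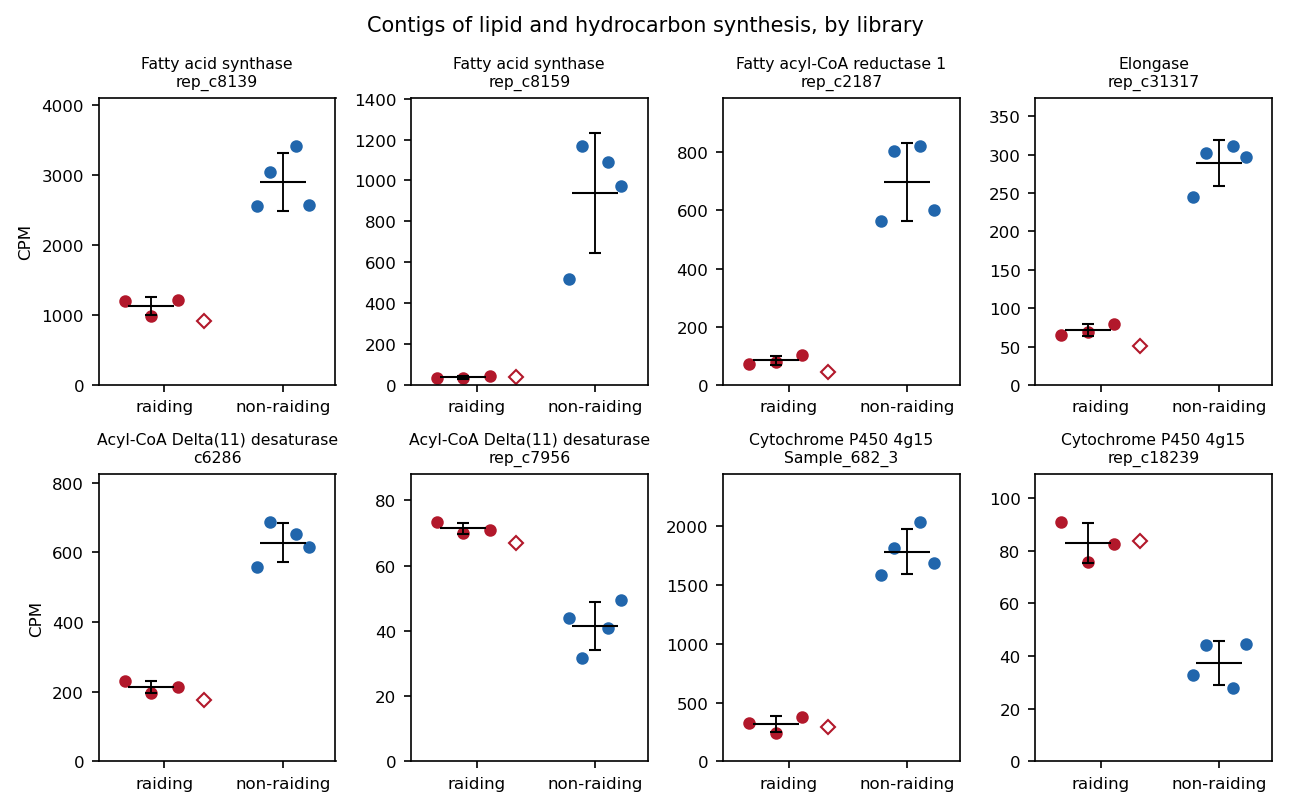
CPM of 8 contigs of lipid and hydrocarbon synthesis by library (vertical axes start at 0), with filled points for the 3 raiding (red, left) and 4 non-raiding libraries (blue, right), an open diamond for DR_687, and bars for the mean ± SD of the filled points. The states do not overlap in any panel, and the desaturase rep_c7956 and cytochrome P450 4g15 rep_c18239 are higher in raiding libraries while the other 6 contigs are lower.

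Acyl-CoA Delta(11) desaturase, an enzyme that puts a double bond into fatty acyl chains, changed in all 4 of its contigs, 2 in each direction. Desaturase c6286 had 231, 196 and 213 CPM in the raiding libraries, against 558, 686.6, 652 and 616 CPM in the non-raiding libraries (log2 fold change -1.56 ± 0.10 SE, adjusted p = 0.00104). Desaturase rep_c21383 averaged 258 ± 28 CPM in 3 raiding and 673 ± 78.2 CPM in 4 non-raiding libraries (SD, log2 fold change -1.38 ± 0.12 SE, adjusted p = 0.00244). Both fell in each fit that left out 1 library. The other desaturase contigs rose: rep_c7956 had 73.3, 70.1 and 70.9 CPM in the raiding libraries, against 44, 31.8, 40.9 and 49.5 CPM in the non-raiding libraries (log2 fold change 0.78 ± 0.14 SE, adjusted p = 0.027), and rep_c1031 had 61.6, 58.7 and 52.9 CPM in raiding and 37.7, 44, 39.7 and 43.8 CPM in non-raiding libraries (0.48 ± 0.09, adjusted p = 0.0325). These smaller changes were less stable. Contig rep_c7956 lost its call without BR_680, BR_682, DR_684, DR_685 or DR_686 (0.67 to 0.88 over the 7 fits), and rep_c1031 lost its call without BR_680, BR_681, BR_682, BR_683, DR_684 or DR_685 (0.43 to 0.54 over the 7 fits).

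Cytochrome P450 4g15, of the same 4G family as the Drosophila enzyme that makes hydrocarbons from aldehydes, behaved in the same divided way, with 3 contigs lower and 2 higher in raiding workers. Contig Sample_680_79 had 1281, 951 and 1109 CPM in the raiding libraries, against 2046, 3067, 2956 and 2570.2 CPM in the non-raiding libraries (log2 fold change -1.26 ± 0.17 SE, adjusted p = 0.0114). The states were farther apart for Sample_682_3, with 324, 243 and 379 CPM in the raiding libraries, against 1586, 1812, 2031 and 1689 CPM in the non-raiding libraries (log2 fold change -2.5 ± 0.17 SE, adjusted p = 0.00112). Contig rep_c8011 averaged 56.5 ± 6.88 CPM in 3 raiding and 293 ± 47.1 CPM in 4 non-raiding libraries (SD, log2 fold change -2.37 ± 0.15 SE, adjusted p = 0.00104). All 3 kept their calls without each library in turn. Against these, rep_c18239 had 90.8, 75.5 and 82.6 CPM in the raiding libraries, against 32.9, 44.2, 28 and 44.6 CPM in the non-raiding libraries (log2 fold change 1.15 ± 0.17 SE, adjusted p = 0.0166) and rep_c12461 had 81.5, 67.5 and 84.1 CPM in raiding and 28.1, 42.2, 31.2 and 43.2 CPM in non-raiding libraries (1.1 ± 0.17, adjusted p = 0.0182). Contig rep_c18239 lost its call without DR_684 (1.03 to 1.24 over the 7 fits), and rep_c12461 lost its call without BR_682, DR_684 or DR_686 (0.99 to 1.2 over the 7 fits). DR_687 stood at 83.6 and 79.3 CPM for these risen contigs, above every non-raiding library. In all, 9 of the 364 protein names had called contigs in both directions, while 19 names with more than 1 called contig had all of them lower and 8 had all of them higher.

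Of the 19 contigs of fatty acid synthase 12 had negative fold changes, 10 of them calls, and 7 had positive ones. The only risen contig was rep_c36219, with 95.3, 66.4 and 121 CPM in the raiding libraries, against 13.1, 36, 15.8 and 34.4 CPM in the non-raiding libraries (log2 fold change 1.92 ± 0.38 SE, adjusted p = 0.0415). Without any 1 of the 7 libraries its call was lost (1.7 to 2.16). The other 6 with positive values did not pass the test, the nearest being rep_c13920 at 1.18 (adjusted p = 0.0541) and rep_c1821 at 1.16 (adjusted p = 0.058). Among fatty acyl-CoA reductases the single risen contig, rep_c10364, was a low one with 8.68, 4.12 and 6.25 CPM in raiding and 0.515, 0.658, 0.678 and 1.81 CPM in non-raiding libraries (2.79 ± 0.48, adjusted p = 0.026). This call was kept only without BR_683 (2.49 to 3.35). The plot of contigs with the same protein match sets these fold changes against abundance.

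**Figure D4:**
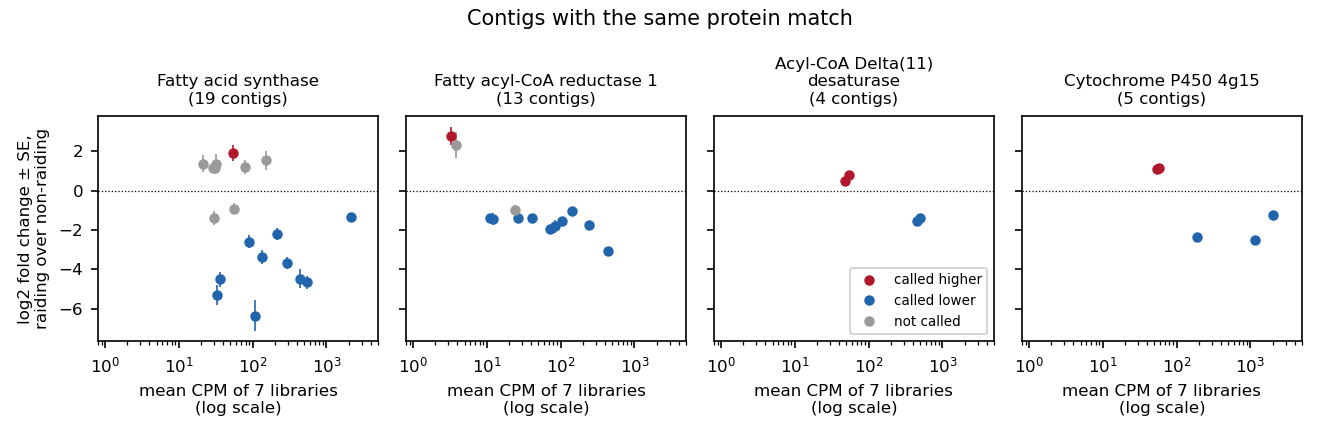
Log2 fold change ± SE (vertical axis) against the mean CPM of the 7 fitted libraries (horizontal log axis) for every tested contig matched to 4 proteins, coloured by call. Contigs over 200 CPM all lie below 0, and the called contigs above 0 are at 3.24 to 56.9 CPM.

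The mevalonate pathway makes isoprenoids including the precursors of juvenile hormone. Only its contigs that the study had called carry names, and all 6 of these fell (median -1.36), against 46.9% of all matched contigs. Its rate-limiting enzyme, HMG-CoA reductase (3-hydroxy-3-methylglutaryl-coenzyme A reductase, rep_c9831), had 27.4, 28 and 27.6 CPM in the raiding libraries, against 72.7, 89.5, 56 and 62.4 CPM in the non-raiding libraries (log2 fold change -1.34 ± 0.16 SE, adjusted p = 0.00793). Hydroxymethylglutaryl-CoA synthase 1 (rep_c3980), the step before it, averaged 76.7 ± 7.07 CPM in 3 raiding and 137 ± 14.2 CPM in 4 non-raiding libraries (SD, log2 fold change -0.83 ± 0.11 SE, adjusted p = 0.00982). Isopentenyl-diphosphate Delta-isomerase 1 (rep_c8019) had 44.9, 56.4 and 106 CPM in raiding and 206, 183, 165 and 168 CPM in non-raiding libraries (-1.39 ± 0.27, adjusted p = 0.0403). Geranylgeranyl pyrophosphate synthase was matched by a contig that was nearly absent from raiding libraries (rep_c34139, 0.0514, 0.588 and 2.75 CPM in raiding and 70.8, 123, 64.4 and 79.6 CPM in non-raiding libraries) and by a lower one with a smaller fall (s31050, -1.72, adjusted p = 0.0163). In DR_687 rep_c34139 had 7.38 CPM. The isomerase lost its call without BR_680, BR_681, BR_682, BR_683, DR_684 or DR_685 (-1.83 to -1.16 over the 7 fits), the synthase rep_c3980 lost its call without DR_684 (-0.91 to -0.77 over the 7 fits), and the reductase rep_c9831 kept its call throughout. The list held 2 without DR_684 and 3 without BR_681 or DR_685, and 4 to 5 without each of the others.

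Other cytochromes P450, enzymes that oxidize foreign compounds, hormones and fatty acids, moved in both directions: 12 of 34 contigs fell (35.3%) and 7 rose (20.6%), against 46.9% and 17.9% of all matched contigs. Cytochrome P450 9e2 (rep_c4712) had 383, 467 and 357 CPM in the raiding libraries, against 832, 840.0, 788 and 826 CPM in the non-raiding libraries (log2 fold change -1.03 ± 0.10 SE, adjusted p = 0.00447). Its raiding libraries were all below its non-raiding ones, as were those of a further 9e2 contig. This contig, rep_c8441, averaged 13.2 ± 0.821 CPM in 3 raiding and 25.2 ± 0.543 CPM in 4 non-raiding libraries (SD, log2 fold change -0.93 ± 0.09 SE, adjusted p = 0.00438). Putative cytochrome P450 6a14 (rep_c12219) shared with Prostatic acid phosphatase the largest rise by the same criteria, with 45.3, 25.6 and 27 CPM in the raiding libraries, against 3.15, 3.95, 1.17 and 4.65 CPM in the non-raiding libraries (log2 fold change 3.34 ± 0.41 SE, adjusted p = 0.00914). Putative cytochrome P450 304a1 (rep_c6425) had 251, 191 and 187 CPM in raiding and 133, 128, 123 and 126 CPM in non-raiding libraries (0.72 ± 0.11, adjusted p = 0.0187). That call was lost without BR_681 or BR_682 (0.56 to 0.79). Cytochrome P450 4C1 was matched by 15 tested contigs, of which 5 fell and 2 rose. The steepest fall was that of rep_c23933, with 1.03, 0.765 and 2.2 CPM in raiding and 7.92, 15.1, 13.4 and 18.1 CPM in non-raiding libraries (-3.37 ± 0.44, adjusted p = 0.0103). The contig's call was lost without DR_684 (-3.91 to -3.09). Contig rep_c15404 of the same name averaged 8.8 ± 1.63 CPM in 3 raiding and 28.4 ± 2.88 CPM in 4 non-raiding libraries (SD, log2 fold change -1.69 ± 0.15 SE, adjusted p = 0.00308). The P450 list held 4 without DR_684, 6 without BR_681 and 7 without DR_685 or DR_686, and 8 to 10 without each of the others for falls, and 3 without BR_681 or DR_684 and 4 without BR_682, and 6 to 8 without each of the others for rises. Of 10 other detoxification contigs 4 fell and none rose, among them Esterase FE4 (rep_c31682), with 23.8, 30.9 and 31.9 CPM in raiding and 59.5, 86.2, 72.2 and 82.5 CPM in non-raiding libraries (-1.38 ± 0.16, adjusted p = 0.00763). A multidrug resistance-associated protein (rep_c1814) averaged 109 ± 7.25 CPM in 3 raiding and 167 ± 9.97 CPM in 4 non-raiding libraries (SD, log2 fold change -0.61 ± 0.08 SE, adjusted p = 0.0106). Carboxylesterase 3 (rep_c16608) averaged 55.1 ± 7.84 CPM in 3 raiding and 90.6 ± 9.78 CPM in 4 non-raiding libraries (SD, -0.72 ± 0.12, adjusted p = 0.026). The call was kept only without BR_680 or DR_684 (-0.84 to -0.65). The detoxification falls were 40% of that list, against 46.9% of all matched contigs, and numbered 2 without BR_681 or BR_682, and 3 to 4 without each of the others.

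Enzymes of sugar digestion and uptake fell in 13 of 16 tested contigs (81.2%, median -1.32) and rose in 1. The shares over all matched contigs were 46.9% and 17.9%. Maltase 2 (rep_c20120), which splits maltose into glucose, had 454, 467 and 494 CPM in the raiding libraries, against 1021, 1050.3, 1261 and 1241 CPM in the non-raiding libraries (log2 fold change -1.28 ± 0.10 SE, adjusted p = 0.00222). Alpha-glucosidase (rep_c1197) had 28.1, 15 and 26.7 CPM in the raiding libraries, against 134, 147, 182 and 145 CPM in the non-raiding libraries (log2 fold change -2.71 ± 0.23 SE, adjusted p = 0.00233). Neither of these enzymes overlapped between states, and both kept their calls without each library in turn. Glucose dehydrogenase fell in 2 of 3 contigs. In rep_c8068 it had 23.4, 73.5 and 30.4 CPM in raiding and 305, 383, 255 and 246 CPM in non-raiding libraries (-2.81 ± 0.41, adjusted p = 0.0155), and in rep_c3407 48.5, 179 and 108 CPM in raiding and 563, 498, 486 and 411.9 CPM in non-raiding libraries (-2.13 ± 0.39, adjusted p = 0.0314), with DR_685 the highest raiding library in both. Contig rep_c8068 lost its call without DR_684 (-3.47 to -2.52 over the 7 fits), and rep_c3407 lost its call without BR_680, BR_681, BR_682, BR_683 or DR_686 (-2.65 to -1.77 over the 7 fits). Hexokinase-2 (rep_c4673), the first step of glucose use, averaged 74.4 ± 19.9 CPM in 3 raiding and 168 ± 24.1 CPM in 4 non-raiding libraries (SD, log2 fold change -1.18 ± 0.19 SE, adjusted p = 0.0216). Its call was lost without BR_681, BR_682 or DR_684 (-1.4 to -1.02). The risen contig was glycogen phosphorylase-like (rep_c4783), which releases glucose units from glycogen, with 53.4, 48.1 and 55.3 CPM in the raiding libraries, against 35, 33.8, 38.3 and 35.3 CPM in the non-raiding libraries (log2 fold change 0.55 ± 0.08 SE, adjusted p = 0.0169). This call was lost without BR_681, DR_684 or DR_686 (0.51 to 0.61). Falls numbered 5 without BR_681 or DR_684 and 7 without BR_682 or DR_685, and 10 to 11 without each of the others. Hexokinase-2 and glycogen phosphorylase were picked after their values were seen. A contig of Protein phosphatase 1 regulatory subunit 3C, which in mammals brings a phosphatase to glycogen, was also higher in raiding workers (rep_c26853, 8.12, 5.24 and 19 CPM in raiding and 2.38, 0.897, 1.73 and 2.39 CPM in non-raiding libraries, 2.54 ± 0.50, adjusted p = 0.0392). That call was kept only without DR_685 (1.85 to 2.87).

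Proteins of protein digestion fell in 10 of 17 tested contigs (58.8%, median -0.79) and rose in 2 (11.8%), against 46.9% and 17.9% of all matched contigs. Aminopeptidase N, a gut enzyme that trims peptides, fell in 5 of its 6 tested contigs. Its most abundant contig, rep_c31765, had 574, 561 and 676 CPM in the raiding libraries, against 1216, 1313, 1338 and 1657 CPM in the non-raiding libraries (log2 fold change -1.19 ± 0.13 SE, adjusted p = 0.00585), and kept its call without each library in turn. In rep_c1073 the values were 188, 174 and 173 CPM in raiding and 291, 472, 491 and 469.6 CPM in non-raiding libraries (-1.27 ± 0.18, adjusted p = 0.014). The contig's call was lost without BR_681, DR_684 or DR_685 (-1.43 to -1.21). A match to Mite allergen Der p 3, a trypsin-like protease of mites, averaged 1.21 ± 0.791 CPM in 3 raiding and 8.73 ± 0.924 CPM in 4 non-raiding libraries (SD, rep_c5254, log2 fold change -2.86 ± 0.46 SE, adjusted p = 0.0204). The call was lost without BR_681, BR_682 or DR_685 (-3.41 to -2.44). Endothelin-converting enzyme 1 (rep_c2039), a peptidase of the neprilysin family, rose, with 119, 121 and 122 CPM in the raiding libraries, against 78, 80.3, 72.4 and 83.1 CPM in the non-raiding libraries (log2 fold change 0.62 ± 0.07 SE, adjusted p = 0.00612). The count of falls in this list was 1 without BR_681, 2 without BR_682, 3 without DR_684 or DR_685 and 6 without BR_683, and 8 without each of the others. Both contigs of Trypsin-7 failed the filter on low counts and were not tested. Contig Sample_683_13954 had 0, 1 and 1 counts in the raiding libraries, against 2, 14, 6 and 319 counts in the non-raiding libraries. Contig Sample_683_6537 had 1, 0 and 3 counts in the raiding libraries, against 7, 0, 0 and 464 counts in the non-raiding libraries. Nearly all of their reads were in BR_683. Trypsin inhibitor (rep_c15176) had 409.2, 291 and 407 CPM in the raiding libraries, against 126, 104, 57.6 and 219.7 CPM in the non-raiding libraries, and did not pass the test (log2 fold change 1.54 ± 0.39 SE, adjusted p = 0.0887). Its states did not overlap, as in 17.3% of all tested contigs. Among the fits with 1 library left out, Trypsin inhibitor was called only without BR_683, as higher. Of 2 contigs of Plasminogen activator inhibitor 1, a serpin, both fell: rep_c4533 averaged 42 ± 5.81 CPM in 3 raiding and 65.8 ± 3.46 CPM in 4 non-raiding libraries (SD, -0.65 ± 0.10, adjusted p = 0.0204) and c11272 4.8 ± 0.835 CPM in 3 raiding and 11.2 ± 3.02 CPM in 4 non-raiding libraries (SD, -1.21 ± 0.25, adjusted p = 0.0449). Contig rep_c4533 lost its call without BR_681, BR_682, DR_684 or DR_686 (-0.77 to -0.59 over the 7 fits), and c11272 lost its call without BR_681, BR_682, BR_683, DR_684, DR_685 or DR_686 (-1.34 to -1.02 over the 7 fits).

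Lipid carriers, lipases and storage proteins were divided, with 7 of 17 contigs lower (41.2%) and 3 higher (17.6%), against 46.9% and 17.9% of all matched contigs. Low-density lipoprotein receptor-related protein 2 (rep_c9642), a receptor that takes up lipoproteins, had 6.73, 8.59 and 9.69 CPM in the raiding libraries, against 33, 40.5, 34.4 and 27 CPM in the non-raiding libraries (log2 fold change -2.02 ± 0.18 SE, adjusted p = 0.00292). Sphingomyelin phosphodiesterase (rep_c8158) averaged 21.4 ± 2.38 CPM in 3 raiding and 48.9 ± 2.91 CPM in 4 non-raiding libraries (SD, log2 fold change -1.19 ± 0.10 SE, adjusted p = 0.00233). A contig of Alpha-tocopherol transfer protein-like protein, a lipid carrier, had 87.1, 111 and 151 CPM in raiding and 261, 339, 285 and 284 CPM in non-raiding libraries (rep_c11146, -1.33 ± 0.19, adjusted p = 0.0134). Its call was lost without DR_685 (-1.56 to -1.16). Fatty acid-binding protein (rep_c17188) rose, with 169.6, 249 and 172 CPM in the raiding libraries, against 41.5, 66.4, 68.2 and 91.3 CPM in the non-raiding libraries (log2 fold change 1.56 ± 0.25 SE, adjusted p = 0.0213). This call was kept only without BR_680, BR_683 or DR_686 (1.35 to 1.74). Carbonic anhydrase 2 fell in 1 of 4 contigs (rep_c25528, 85.7, 89.9 and 95 CPM in raiding and 236, 220.5, 178 and 189 CPM in non-raiding libraries, -1.19 ± 0.11, adjusted p = 0.00351). The acyl-CoA ligase relative 4-coumarate--CoA ligase 1, a name from plants, averaged 29.5 ± 12.6 CPM in 3 raiding and 166 ± 32.6 CPM in 4 non-raiding libraries (SD, rep_c18078, log2 fold change -2.5 ± 0.29 SE, adjusted p = 0.00793). Carbonic anhydrase rep_c25528 and the ligase kept their calls without each library in turn. The falls among lipid carriers numbered 5 to 8 without each library in turn.

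Enzymes of amino acid, polyamine and purine turnover fell in 14 of 21 contigs (66.7%, median -0.75) and rose in 2. The shares over all matched contigs were 46.9% and 17.9%. Purine nucleoside phosphorylase, which splits nucleosides, fell in both of its contigs. In rep_c13183 it had 42.7, 59.5 and 40.5 CPM in the raiding libraries, against 218, 232, 198 and 162 CPM in the non-raiding libraries (log2 fold change -2.09 ± 0.18 SE, adjusted p = 0.00233). Putative aspartate aminotransferase (rep_c1403) averaged 177 ± 31.7 CPM in 3 raiding and 288 ± 25.3 CPM in 4 non-raiding libraries (SD, log2 fold change -0.70 ± 0.13 SE, adjusted p = 0.0316). That call was kept only without DR_686 (-0.86 to -0.61). Polyamine synthesis went both ways. Spermine synthase-like (rep_c8606) had 145, 152 and 150.4 CPM in the raiding libraries, against 51.5, 57.2, 50.5 and 62.9 CPM in the non-raiding libraries (log2 fold change 1.43 ± 0.09 SE, adjusted p = 0.00104), and kept its call without each library in turn. Spermine synthase (rep_c8849), a separate and lower contig, had 12.7, 8.29 and 7.76 CPM in raiding and 21.4, 20.7, 25.1 and 15.8 CPM in non-raiding libraries (-1.11 ± 0.22, adjusted p = 0.044), and was picked after its values were seen. The contig's call was kept only without BR_683 (-1.37 to -0.98). Uridine 5'-monophosphate synthase (s29302), of pyrimidine synthesis, averaged 206 ± 9.64 CPM in 3 raiding and 134 ± 13.7 CPM in 4 non-raiding libraries (SD, log2 fold change 0.62 ± 0.09 SE, adjusted p = 0.0172). The call was kept only without BR_680, BR_682 or BR_683 (0.55 to 0.68). Falls in this list numbered 4 without BR_682 or DR_684, 5 without BR_681 or DR_685, 8 without BR_683 or DR_686 and 9 without BR_680.

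Solute carriers and ion transporters fell in 20 of 30 contigs (66.7%, median -0.89) and rose in 1. Of all matched contigs 46.9% fell and 17.9% rose. Organic cation transporter protein (rep_c4278) had 17.7, 19.1 and 18 CPM in the raiding libraries, against 44, 51.9, 45.7 and 40.8 CPM in the non-raiding libraries (log2 fold change -1.32 ± 0.10 SE, adjusted p = 0.00168). Putative inorganic phosphate cotransporter (rep_c18460) averaged 10.9 ± 0.613 CPM in 3 raiding and 27.3 ± 3.16 CPM in 4 non-raiding libraries (SD, log2 fold change -1.32 ± 0.12 SE, adjusted p = 0.0032). Both kept their calls without each library in turn. ATP-binding cassette sub-family A member 13 (rep_c2599), of a family that moves lipids across membranes, had 157, 208 and 175 CPM in raiding and 314, 398, 296 and 312 CPM in non-raiding libraries (-0.88 ± 0.14, adjusted p = 0.0193). Its call was lost without DR_684 or DR_686 (-1.0 to -0.78). Vacuolar proton pump subunit d (rep_c11374) averaged 98.4 ± 9.35 CPM in 3 raiding and 140.3 ± 11.4 CPM in 4 non-raiding libraries (SD, -0.51 ± 0.10, adjusted p = 0.0345). This call was kept only without BR_683 or DR_686 (-0.58 to -0.45). Falls numbered 4 without DR_684, 9 without BR_682, 11 without BR_681 or DR_685 and 13 without DR_686, and 16 to 18 without each of the others. All 5 contigs of redox and iron proteins fell (median -1.04), against 46.9% of all matched contigs. Cytochrome b5, which passes electrons to desaturases and P450 enzymes, had 184, 187 and 157 CPM in the raiding libraries, against 366, 364, 373 and 345 CPM in the non-raiding libraries (rep_c7414, log2 fold change -1.04 ± 0.08 SE, adjusted p = 0.00222), and its lower contig rep_c13226 averaged 9.56 ± 4.19 CPM in 3 raiding and 41.8 ± 10.3 CPM in 4 non-raiding libraries (SD, -2.13 ± 0.33, adjusted p = 0.0187). Contig rep_c13226 lost its call without DR_684 or DR_686 (-2.51 to -1.86 over the 7 fits), and redox falls numbered 1 without DR_684, 2 without BR_681, BR_682, DR_685 or DR_686 and 3 without BR_680 or BR_683. Ferrochelatase (rep_c18601), the last step of heme synthesis, had 24.9, 22.9 and 29 CPM in raiding and 34.3, 49.9, 47.8 and 46.5 CPM in non-raiding libraries (-0.80 ± 0.15, adjusted p = 0.0326). That call was kept only without BR_680 (-0.92 to -0.73). Of 10 contigs of mitochondrial respiration 4 fell and none rose, by -0.78 to -0.50: NADH dehydrogenase [ubiquinone] 1 beta subcomplex subunit 8 (c19242) averaged 50.5 ± 4.98 CPM in 3 raiding and 72.3 ± 5.57 CPM in 4 non-raiding libraries (SD, -0.52 ± 0.10, adjusted p = 0.0334), and subunit 2 (rep_c19705) 37.4 ± 2.38 CPM in 3 raiding and 52.8 ± 4.65 CPM in 4 non-raiding libraries (SD, -0.50 ± 0.09, adjusted p = 0.0344). Cytochrome c (rep_c4259) had 74.7, 85.5 and 113 CPM in raiding and 179.6, 156, 158 and 132 CPM in non-raiding libraries (-0.78 ± 0.16, adjusted p = 0.0458). Cytochrome b-c1 complex subunit 7 (rep_c17093) averaged 86.7 ± 10.9 CPM in 3 raiding and 127 ± 12 CPM in 4 non-raiding libraries (SD, -0.55 ± 0.11, adjusted p = 0.0449). NADH dehydrogenase subunit 1 (rep_c25776), encoded in the mitochondrion, had 0.565, 0.765 and 0 CPM in raiding and 3.86, 14.4, 0.308 and 1.03 CPM in non-raiding libraries and did not pass the test (adjusted p = 0.288), while DR_687 stood alone at 429.2 CPM. The falls in mitochondrial respiration were 40% of that list, against 46.9% of all matched contigs. These falls numbered 0 without BR_680, BR_681, BR_682, DR_684 or DR_685, and 4 to 6 without each of the others.

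In the nervous system list of transmitters, peptides, receptors and channels, 12 of 25 contigs fell (48%) and 3 rose (12%), against 46.9% and 17.9% of all matched contigs. Neuroparsin-A (rep_c7820), a neurohormone that in locusts delays egg maturation, had 4.21, 5.59 and 4.88 CPM in the raiding libraries, against 31.9, 22.8, 23.5 and 20.1 CPM in the non-raiding libraries (log2 fold change -2.33 ± 0.20 SE, adjusted p = 0.00233), the largest change of the list's called contigs. Vesicular acetylcholine transporter (rep_c948), which loads acetylcholine into synaptic vesicles, had 50.3, 48.1 and 46.2 CPM in the raiding libraries, against 86.8, 75, 78 and 76.5 CPM in the non-raiding libraries (log2 fold change -0.71 ± 0.08 SE, adjusted p = 0.00605). The states did not overlap in either, but DR_687 stood at 76.6 CPM for the transporter, within the range of the non-raiding libraries. In the fit with DR_687 the transporter's log2 fold change was -0.54 (adjusted p = 0.0908), no longer a call. Neuronal acetylcholine receptor subunit beta-2 (rep_c12546) averaged 56.2 ± 1.19 CPM in 3 raiding and 86.4 ± 7.72 CPM in 4 non-raiding libraries (SD, log2 fold change -0.62 ± 0.09 SE, adjusted p = 0.0131). The contig's call was lost without BR_681, DR_684 or DR_685 (-0.68 to -0.58). Vesicular glutamate transporter 2 (rep_c31708) had 48, 67.1 and 77.4 CPM in raiding and 111, 115, 117 and 104 CPM in non-raiding libraries (-0.80 ± 0.15, adjusted p = 0.0345). The call was kept only without DR_686 (-0.96 to -0.63). Tachykinin (rep_c7854), a neuropeptide known in Drosophila for a role in male aggression, had 35.9, 49.8 and 36.8 CPM in the raiding libraries, against 94.8, 87, 88.6 and 62.5 CPM in the non-raiding libraries (log2 fold change -1.03 ± 0.17 SE, adjusted p = 0.0248), and was picked after its values were seen. Its call was kept only without BR_683 or DR_685 (-1.2 to -0.95). The 3 risen contigs, named because they are few, were Glutamate receptor, ionotropic kainate 2 (rep_c8716, 0.85, adjusted p = 0.019), a voltage-dependent calcium channel subunit, alpha-2/delta-3 (rep_c3593, 0.90, adjusted p = 0.0145), and unc-13-like protein D (rep_c8660, 0.56, adjusted p = 0.0318). Falls numbered 2 without DR_684, 4 without BR_681, 5 without BR_682 or DR_685 and 7 without BR_680, and 8 to 10 without each of the others, and rises 0 without BR_681 or DR_685 and 1 without BR_682 or DR_684, and 2 to 3 without each of the others.

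Proteins related to the senses included several of the most abundant contigs that fell. Circadian clock-controlled protein (Sample_682_1210), of the takeout family of insect carrier proteins, had 204, 401 and 202 CPM in the raiding libraries, against 1354, 1516, 1448 and 1255 CPM in the non-raiding libraries (log2 fold change -2.37 ± 0.26 SE, adjusted p = 0.0059). Putative odorant-binding protein A10 (rep_c8065) had 549, 779 and 739 CPM in the raiding libraries, against 1363, 1770.1, 1529.8 and 1709 CPM in the non-raiding libraries (log2 fold change -1.21 ± 0.15 SE, adjusted p = 0.00914). Ejaculatory bulb-specific protein 3 (rep_c13910), named for Drosophila and of the chemosensory protein family, had 246, 396 and 301 CPM in the raiding libraries, against 923, 1056, 1104 and 876 CPM in the non-raiding libraries (log2 fold change -1.66 ± 0.17 SE, adjusted p = 0.00503). These 3 kept their calls without each library in turn, and in each DR_685 was the highest raiding library. Pheromone-binding protein Gp-9 (rep_c28998), an odorant-binding protein linked to colony organization in fire ants, had 296, 559 and 297 CPM in raiding and 1118, 1058, 759 and 1334 CPM in non-raiding libraries (-1.48 ± 0.28, adjusted p = 0.0347). This call was kept only without BR_682 or DR_685 (-1.85 to -1.32). Over the list 5 of 9 contigs fell (55.6%) and 1 rose (11.1%), against 46.9% and 17.9% of all matched contigs. Falls numbered 3 without BR_680, BR_681, BR_683, DR_684 or DR_686, and 4 to 6 without each of the others. The risen contig was also matched to Circadian clock-controlled protein (Sample_684_8204), with 87.4, 56.1 and 89.6 CPM in raiding and 40.4, 40.9, 45.7 and 49.5 CPM in non-raiding libraries (0.82 ± 0.17, adjusted p = 0.0448). That call was kept only without DR_685 (0.70 to 1.0). Protein takeout itself (rep_c4856) did not pass the test (log2 fold change 1.17 ± 0.36 SE, adjusted p = 0.157).

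**Figure D5:**
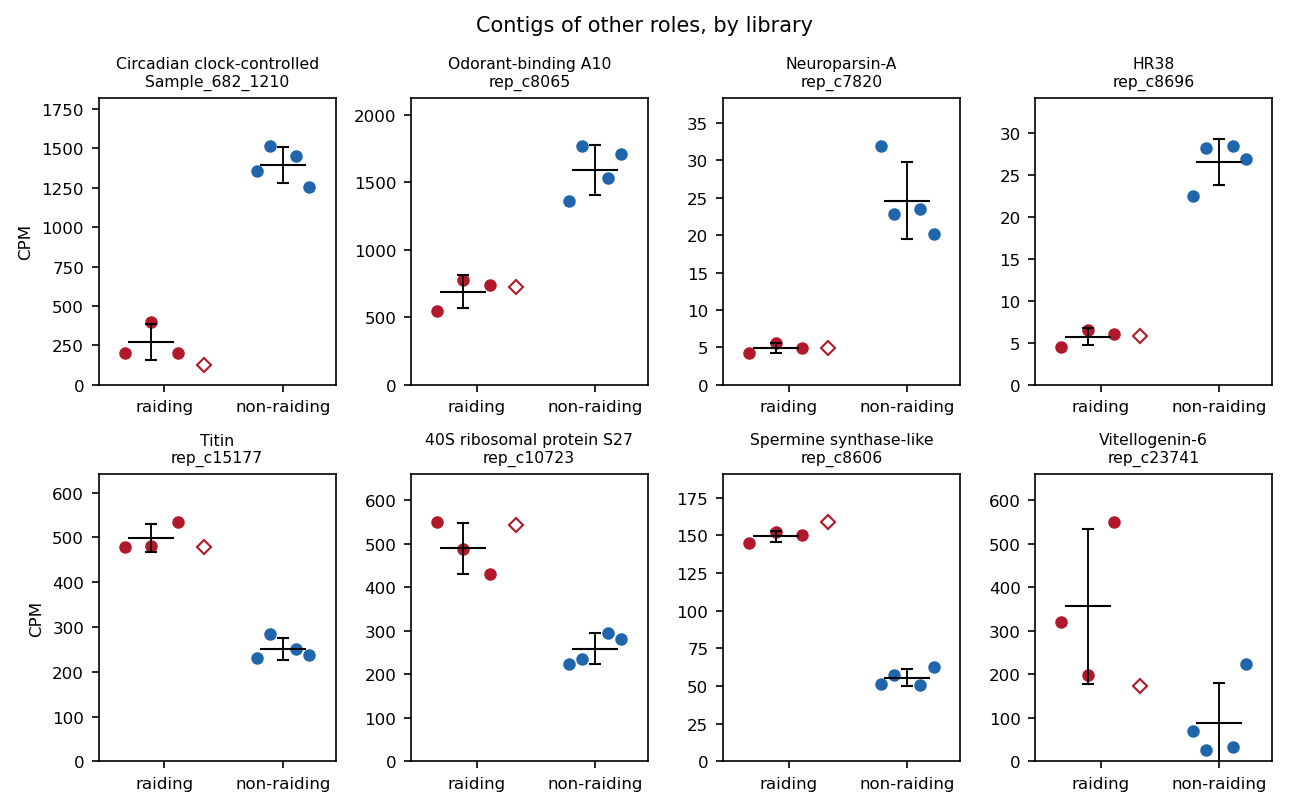
CPM of 8 contigs of other roles by library (vertical axes start at 0), with filled points for the 3 raiding (red, left) and 4 non-raiding libraries (blue, right), an open diamond for DR_687, and bars for the mean ± SD of the filled points. The upper 4 contigs fell and titin, 40S ribosomal protein S27 and spermine synthase-like rose in raiding workers, while the states overlap for Vitellogenin-6.

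Among transcription factors and clock proteins 6 of 12 contigs fell (50%) and 3 rose (25%), against 46.9% and 17.9% of all matched contigs. Putative nuclear hormone receptor HR38 (rep_c8696), whose transcription follows neuronal activity in insect brains, had 4.57, 6.53 and 6.05 CPM in the raiding libraries, against 22.5, 28.2, 28.5 and 26.9 CPM in the non-raiding libraries (log2 fold change -2.21 ± 0.16 SE, adjusted p = 0.00148). DR_687 had 5.8 CPM, within the raiding libraries. The match to Aryl hydrocarbon receptor nuclear translocator-like protein 1 (rep_c2189), the vertebrate relative of the clock protein cycle, was higher, with 83.8, 74.5 and 76.6 CPM in the raiding libraries, against 44.7, 44, 39.3 and 44.9 CPM in the non-raiding libraries (log2 fold change 0.86 ± 0.08 SE, adjusted p = 0.0032). HR38 and this contig kept their calls without each library in turn. CCAAT/enhancer-binding protein (rep_c5779) averaged 67.7 ± 3.22 CPM in 3 raiding and 95.5 ± 6.08 CPM in 4 non-raiding libraries (SD, -0.50 ± 0.08, adjusted p = 0.019). The contig's call was kept only without BR_680 or BR_683 (-0.54 to -0.46). Forkhead box protein K1 (rep_c8157) had 256, 219 and 186 CPM in raiding and 119, 124, 131 and 141 CPM in non-raiding libraries (0.77 ± 0.12, adjusted p = 0.0167). The call was kept only without BR_680, BR_683 or DR_686 (0.65 to 0.88). Falls in this list numbered 2 without DR_684, and 4 to 6 without each of the others, and rises 1 without BR_681, BR_682, DR_684 or DR_685, and 2 without each of the others.

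Insulin and growth signals had 5 of 16 contigs lower (31.2%) and 3 higher (18.8%), against 46.9% and 17.9% of all matched contigs. Protein smoothened (rep_c6490), the signal transducer of the Hedgehog pathway, had 108, 111 and 112 CPM in the raiding libraries, against 265, 245, 239 and 229.8 CPM in the non-raiding libraries (log2 fold change -1.15 ± 0.07 SE, adjusted p = 0.00104). A contig of insulin-degrading enzyme (rep_c8538) rose, with 38.6, 36.2 and 36.9 CPM in the raiding libraries, against 18.2, 17.1, 13.9 and 19 CPM in the non-raiding libraries (log2 fold change 1.13 ± 0.12 SE, adjusted p = 0.0052). Mothers against decapentaplegic-like protein 6 (rep_c2887), an inhibitor of TGF-beta signals, averaged 118 ± 9.44 CPM in 3 raiding and 72.1 ± 3.63 CPM in 4 non-raiding libraries (SD, log2 fold change 0.71 ± 0.08 SE, adjusted p = 0.00647). All 3 kept their calls without each library in turn. The contigs of Insulin receptor (rep_c2525, 0.56, adjusted p = 0.0547) and insulin receptor-2 (rep_c2804, 0.71, adjusted p = 0.0636) did not pass the test. Falls numbered 1 without DR_684, 2 without BR_681, BR_682 or DR_686 and 3 without BR_683, and 5 to 7 without each of the others. A contig matched to Gonadotropin-releasing hormone II receptor, whose closest insect relatives are the receptors for adipokinetic hormone and corazonin, was higher in raiding workers (Sample_683_2624, 45.5, 36.9 and 37.2 CPM in raiding and 19.4, 9.93, 9.06 and 11.4 CPM in non-raiding libraries, 1.68 ± 0.26, adjusted p = 0.0182). Its call was lost without BR_681, DR_684 or DR_685 (1.56 to 1.97).

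Muscle proteins were the largest list that mostly rose: 9 of 13 tested contigs were higher in raiding workers (69.2%, against 17.9% of all matched contigs) and none fell, with a median of 0.79. Titin, the elastic protein of the sarcomere, rose in all 4 tested contigs. In rep_c15177 it had 479.7, 480.2 and 534 CPM in the raiding libraries, against 231, 284, 251 and 237 CPM in the non-raiding libraries (log2 fold change 0.99 ± 0.09 SE, adjusted p = 0.0032). Nesprin-1 (rep_c16315), which anchors nuclei to the cytoskeleton, had 519.5, 569.8 and 528 CPM in the raiding libraries, against 292, 319.9, 286 and 295 CPM in the non-raiding libraries (log2 fold change 0.85 ± 0.07 SE, adjusted p = 0.00233). DR_687 had 479 CPM of titin rep_c15177 and 712 CPM of Nesprin-1, above every non-raiding library. Both contigs kept their calls without each library in turn. Muscle M-line assembly protein unc-89 rose in 2 contigs, by 0.67 and 0.79, and Caveolin-3 (rep_c5838), of muscle membranes, by 1.14 (adjusted p = 0.0214). Troponin C, the calcium sensor of the thin filament, did not pass the test, with 45.1, 98.9 and 207 CPM in the raiding libraries, against 534, 334, 392 and 251 CPM in the non-raiding libraries (rep_c8146, log2 fold change -1.7 ± 0.49 SE, adjusted p = 0.133), and Paramyosin (rep_c34325) stood at -1.19 (adjusted p = 0.127). The rises numbered 4 without BR_680, BR_681 or DR_684 and 5 without DR_685 or DR_686, and 7 without each of the others. A muscle fall was called in 1 contig without DR_686, and in 0 without each of the others. With the likelihood ratio test and with DESeq2, 11 muscle contigs were called higher and 2, Troponin C and Paramyosin, lower.

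Ribosomal proteins and translation factors rose in 7 of 12 contigs (58.3%) and fell in 1, with a median of 0.66. The shares over all matched contigs were 17.9% risen and 46.9% fallen. The risen contigs were all ribosomal proteins. 40S ribosomal protein S27 (rep_c10723) had 549.7, 488 and 430.8 CPM in the raiding libraries, against 223, 236, 295 and 282 CPM in the non-raiding libraries (log2 fold change 0.92 ± 0.13 SE, adjusted p = 0.0134). 60S ribosomal protein L18 (Sample_684_1464) averaged 327 ± 34.8 CPM in 3 raiding and 198 ± 15.7 CPM in 4 non-raiding libraries (SD, log2 fold change 0.72 ± 0.10 SE, adjusted p = 0.0128). A low contig of 40S ribosomal protein S9 (rep_c31580) had 19.8, 14.6 and 15.7 CPM in raiding and 6.44, 2.99, 6.1 and 3.36 CPM in non-raiding libraries (1.82 ± 0.30, adjusted p = 0.0216). S27 lost its call without BR_681 or DR_684 (0.82 to 1.0 over the 7 fits), L18 lost its call without BR_681, DR_684 or DR_685 (0.66 to 0.80 over the 7 fits), and S9 lost its call without BR_681, DR_684, DR_685 or DR_686 (1.65 to 2.0 over the 7 fits). The rises numbered 0 without BR_681 or DR_684 and 1 without DR_685, and 5 to 7 without each of the others. The fallen contig was Translation initiation factor IF-2 (rep_c19159), with 47.6, 75.6 and 34.5 CPM in raiding and 178, 322, 405 and 178 CPM in non-raiding libraries (-2.37 ± 0.39, adjusted p = 0.0231). This call was kept only without BR_680, BR_683 or DR_685 (-2.72 to -2.11). Proteasome and ubiquitin proteins, which break down proteins, fell in 5 of 10 contigs (50%) and rose in none. Of all matched contigs 46.9% fell and 17.9% rose. Proteasome maturation protein (rep_c11121) had 48.1, 49.6 and 47.1 CPM in the raiding libraries, against 73.9, 78.8, 76.5 and 74.3 CPM in the non-raiding libraries (log2 fold change -0.65 ± 0.06 SE, adjusted p = 0.00426), and kept its call without each library in turn. Proteasome subunit alpha type-5 (rep_c11173) averaged 46 ± 2.76 CPM in 3 raiding and 68.4 ± 5.46 CPM in 4 non-raiding libraries (SD, -0.57 ± 0.09, adjusted p = 0.0188). That call was kept only without BR_680, BR_683 or DR_686 (-0.63 to -0.53). Those falls numbered 1 without BR_681, DR_684 or DR_685, 2 without BR_682 and 3 without DR_686, and 4 without each of the others.

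The most abundant called contig with a name was Protein lethal(2)essential for life (rep_c1110), a small heat shock protein of the alpha-crystallin family. It had 16622, 16185 and 11106 CPM in the raiding libraries, against 3790.4, 5189, 4074 and 5736 CPM in the non-raiding libraries (log2 fold change 1.64 ± 0.20 SE, adjusted p = 0.00805), and DR_687 had 15986 CPM. The lowest raiding library, DR_686, still lay above the highest non-raiding library, BR_683. It was the only heat shock contig with a name, and it kept its call without each library in turn.

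Of 13 tested immune contigs 4 fell (30.8%) and 3 rose (23.1%), against 46.9% and 17.9% of all matched contigs. Protein toll, the receptor of the Toll pathway, fell in all 3 of its contigs, of which rep_c9871 had 32, 36 and 36 CPM in the raiding libraries, against 59.8, 68.8, 75.4 and 61.7 CPM in the non-raiding libraries (log2 fold change -0.94 ± 0.10 SE, adjusted p = 0.00617). Peroxidase (c479) rose, averaging 32.9 ± 4.19 CPM in 3 raiding and 18.2 ± 1.46 CPM in 4 non-raiding libraries (SD, log2 fold change 0.86 ± 0.12 SE, adjusted p = 0.0128). The contig's call was lost without DR_684 (0.79 to 0.96). Galectin-3 (Sample_684_131), a sugar-binding protein, had 108, 134 and 175 CPM in raiding and 82.4, 88.7, 78.8 and 78.9 CPM in non-raiding libraries (0.76 ± 0.15, adjusted p = 0.0399). The call was kept only without DR_684 (0.56 to 0.91). Hymenoptaecin (c20570), an antimicrobial peptide of ants, bees and wasps, had 2.21, 5.0 and 0.962 CPM in the raiding libraries, against 2.64, 38, 28.7 and 2.26 CPM in the non-raiding libraries and did not pass the test (log2 fold change -2.71 ± 1.11 SE, adjusted p = 0.292). Its high values came from BR_681 and BR_682, while BR_680 and BR_683 lay among the raiding libraries. Immune falls numbered 1 without DR_684 or DR_686 and 2 without BR_681, BR_682 or DR_685, and 3 without each of the others, and rises 1 without BR_680, BR_681, BR_683, DR_684, DR_685 or DR_686, and 2 without each of the others.

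Proteins of yolk and egg formation were few. Vitellogenin-6 (rep_c23741), a yolk precursor made in the fat body, had 321, 198 and 549 CPM in the raiding libraries, against 69.2, 25.2, 33.5 and 224 CPM in the non-raiding libraries (log2 fold change 2.02 ± 0.74 SE, adjusted p = 0.234). The states overlapped, because BR_683 was higher than DR_685, and the difference did not pass the test. Among the fits with 1 library left out, Vitellogenin-6 was called only without BR_683, as higher. Vitellogenin receptor (rep_c14029), which takes yolk into the oocyte, had 9.14, 7.12 and 7.01 CPM in the raiding libraries, against 17.7, 13, 10.5 and 24 CPM in the non-raiding libraries and did not pass the test either (log2 fold change -1.07 ± 0.29 SE, adjusted p = 0.112). RING finger protein 17 (rep_c5788), a Tudor protein of the germ line in mice, rose, with 79.3, 76.5 and 54.1 CPM in the raiding libraries, against 29.8, 37.3, 21.9 and 31.5 CPM in the non-raiding libraries (log2 fold change 1.22 ± 0.19 SE, adjusted p = 0.0205). Its call was lost without BR_680, DR_684 or DR_685 (1.09 to 1.37). Kelch-like protein 10, known from the testis of mammals and Drosophila, rose in 2 contigs. In rep_c12775 it averaged 30.7 ± 3.99 CPM in 3 raiding and 14.7 ± 1.76 CPM in 4 non-raiding libraries (SD, log2 fold change 1.06 ± 0.13 SE, adjusted p = 0.00982), and in rep_c6080 76.8 ± 16.5 CPM in 3 raiding and 45.2 ± 3.89 CPM in 4 non-raiding libraries (SD, 0.76 ± 0.15, adjusted p = 0.0353). Contig rep_c12775 kept its call without each library in turn, and rep_c6080 lost its call without BR_680, BR_681, BR_682, BR_683, DR_684 or DR_686 (0.59 to 0.91 over the 7 fits). Kelch domain-containing protein 6 (Sample_680_25081) had 0, 0 and 2 counts in the raiding libraries, against 21, 21, 4 and 19 counts in the non-raiding libraries, and did not pass the test (adjusted p = 0.117). The keyword list of cuticle, chitin and mucin proteins mixes proteins of different kinds. In it Protein yellow (c15550), of the pigment and royal jelly protein family, averaged 13.5 ± 4.61 CPM in 3 raiding and 33.8 ± 2.68 CPM in 4 non-raiding libraries (SD, log2 fold change -1.32 ± 0.22 SE, adjusted p = 0.0216). Mucin-1 (rep_c31871) averaged 49.2 ± 10.2 CPM in 3 raiding and 99.9 ± 19.3 CPM in 4 non-raiding libraries (SD, -1.02 ± 0.19, adjusted p = 0.0319). Fibropellin-1 (c89) averaged 17.3 ± 0.0566 CPM in 3 raiding and 8.27 ± 1.0 CPM in 4 non-raiding libraries (SD, 1.07 ± 0.13, adjusted p = 0.00914). Protein yellow lost its call without BR_681, BR_682 or DR_684 (-1.62 to -1.12 over the 7 fits), Mucin-1 lost its call without BR_681, BR_682, BR_683, DR_684, DR_685 or DR_686 (-1.19 to -0.89 over the 7 fits), and Fibropellin-1 lost its call without DR_684 (1.01 to 1.12 over the 7 fits).

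Of the 901 matched contigs, 41 failed the filter on low counts and were not tested. Other named contigs with large rises belong to none of these groups. Prostatic acid phosphatase (rep_c13682), of the histidine acid phosphatases, had 98.2, 53.9 and 154 CPM in the raiding libraries, against 18.4, 4.55, 1.97 and 15.6 CPM in the non-raiding libraries (log2 fold change 3.34 ± 0.70 SE, adjusted p = 0.0492). Without any 1 of the 7 libraries its call was lost (2.92 to 3.79). Protein FAM45B (rep_c35096) had 16.6, 10 and 16.5 CPM in the raiding libraries, against 3.61, 2.45, 2.03 and 3.17 CPM in the non-raiding libraries (log2 fold change 2.35 ± 0.27 SE, adjusted p = 0.00715). Inositol-tetrakisphosphate 1-kinase (rep_c8183), which phosphorylates inositol phosphates, had 74.5, 67.8 and 89.9 CPM in the raiding libraries, against 26.1, 23.7, 28 and 30.7 CPM in the non-raiding libraries (log2 fold change 1.51 ± 0.12 SE, adjusted p = 0.00222). FAM45B and this kinase kept their calls without each library in turn.

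The share of called contigs differed with the way a contig was assembled. It was 3.35% of 29253 tested contigs of the joint assembly, and 1.04 to 1.63% of those named for a single library. Sample_684 contigs were the only such group with more risen (19) than fallen (11), and their median log2 fold change over 2886 tested contigs was 0.51. For 2379 tested Sample_680 contigs the median was -0.40, with 6 risen and 31 fallen. The median was 0.02 over the joint assembly. By the libraries in which they peaked, Sample_684 contigs came from reads of raiding and Sample_680 contigs from reads of non-raiding libraries, so the direction of such contigs is not independent of how they were made.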

How the data were processed

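Raw counts per contig were deposited by the authors for each library. The study's methods describe FastQC and Trimmomatic for the reads, a de novo meta-assembly per species, mapping with TopHat2 (2.0.13 in the submitters' processing notes) and Bowtie 2, counting with eXpress and BlastX matches against arthropod proteins. Protein titles came from a deposited table of contigs that the authors called with edgeR on the same 7 libraries. That table's fold changes and p-values were not used, nor were 23 further columns of per-sample values. No sequence was used here.

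Counts were tested with edgeR 4.0.16 in R 4.3.3: contigs kept by filterByExpr (minimum count 10), TMM scaling, glmQLFit and glmQLFTest, raiding over non-raiding, Benjamini-Hochberg adjustment over all 38402 tested contigs and a threshold of 0.05. CPM used the scaled library sizes, which were 14554452 to 19465448, and log2 CPM for library likeness and for DR_687 used a prior count of 2. SE was the absolute log2 fold change over the square root of F. DESeq2 1.42.0, the likelihood ratio test, RLE size factors, no filter, DR_687 included, joint-assembly contigs alone and 1 library left out were the alternatives. Fits with libraries paired across states were added after seeing the data.

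Protein lists found members by keyword in the match titles. Contigs described singly were matches to proteins that the study discussed, the 10 largest called changes each way that name a protein with a mean of at least 5 CPM and no overlap of states, in each list the 2 most abundant and the 2 of smallest p among called contigs, and the 10 most abundant called contigs that name a protein. Any others were picked after their values were seen, also where this is not said beside them. Among them are the uncalled Troponin C, Paramyosin, insulin receptors, Protein takeout and fatty acid synthases rep_c13920 and rep_c1821. Members, lists and rules were chosen with earlier results of these data known.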

Additional observations from a re-analysis of the deposited data

Results flagged for a closer look

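Dixon's rule was applied to the 4 non-raiding libraries for 112 contigs and picked out 8 in which 1 library lay apart from the others, where chance alone picks about 1 in 20. Aminopeptidase N rep_c1073 had 290.707 CPM in BR_680, against 469.6 to 491 CPM in the other non-raiding libraries. The elongase rep_c5002 had 105.916 CPM in the same library, against 139 to 141 CPM. Putative aspartate aminotransferase rep_c1403 was high there, at 325.733 CPM against 273 to 278 CPM. Aryl hydrocarbon receptor nuclear translocator-like protein 1 (rep_c2189) had 39.3254 CPM in BR_682, against 44.0 to 44.9 CPM. Kelch domain-containing protein 6 (Sample_680_25081) had 0.246554 CPM in BR_682, a value of 4 counts. Mite allergen Der p 3 (rep_c5254) had 7.35673 CPM in BR_681, against 9.06 to 9.34 CPM.

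Trypsin-7 was present almost in 1 library alone. Contig Sample_683_13954 had 20.611 CPM in BR_683 and 0.129 to 0.837 CPM in the other non-raiding libraries, and contig Sample_683_6537 had 29.9797 CPM in BR_683 and 0 to 0.451 CPM in the others. BR_683 held 13 contigs with at least 90% of their CPM over the 8 libraries and at least 10 CPM, 9 of them with a protein match and none of them called.

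DR_687, which took no part in the comparison, held 51 contigs at 10 CPM or more that were at least 10 times the highest of the 7 fitted libraries. They summed to 4941 CPM. The only one with a protein match was NADH dehydrogenase subunit 1 (rep_c25776), at 429.2 CPM in DR_687. The same measure gave 0 to 19 contigs in each of the other libraries, the most in BR_683.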

How the results depend on the processing

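No called contig changed sign under any alternative run. The 1105 called contigs (361 higher and 744 lower in raiding workers) became 2054 (776 and 1278) with edgeR's likelihood ratio test, 1917 (722 and 1195) with that test and no filter, 2804 (1010 and 1794) with DESeq2, and 1747 (595 and 1152) with DR_687 added. These fits kept 1085, 1031, 1085 and 1032 of the 1105. RLE size factors, no filter, and joint-assembly contigs alone gave 1094, 951 and 1326. Without 1 library in turn the calls ranged from 248 to 823, the higher ones from 54 to 260, the lower ones from 194 to 563, and the 225 called list members from 84 to 191, each lowest without DR_684 and highest without BR_683. DR_687 lay on the raiding side for 98.3% of calls and nearer to the raiding mean for 90.05%.

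Among contigs described singly by the stated rules, Trypsin inhibitor and Vitellogenin receptor were called by the likelihood ratio test and by DESeq2, Vitellogenin receptor also with DR_687 (adjusted p = 0.0434). Vesicular acetylcholine transporter lost its call with DR_687. Without the filter 4 such contigs lost their calls, at adjusted p of 0.052 to 0.0573. Outside those rules, the likelihood ratio test and DESeq2 also called the 2 muscle contigs with negative fold changes, Troponin C and Paramyosin. They further called all 6 insulin list contigs and all 3 sense-related contigs with positive fold changes. The insulin receptors and Protein takeout are among these. The cause of these changes was not tested. The labels pair no libraries, though colonies were shared across states. Pairing by order of number (DR_684 with BR_680, and so on) was tried after seeing the data. Deviations from the state means correlated at 0.0361 to 0.0966 within the 4 pairs, each library best with its partner. The study's assembly also joined some replicates of the same number across states. Sample_682 and Sample_683 contigs peaked most in libraries that this order pairs. The study does not say that replicates of the same number share colonies, so the pairing remains an assumption. With this replicate block 96 contigs were called (13 higher and 83 lower), 92 of them among the 1105, and with the block and DR_687 added 738 (187 and 551), 626 of them among the 1105. No call changed sign in either fit. The block left 40 of the 225 list members called. With it 0 contigs of the muscle, mevalonate, ribosomal and protein digestion lists were called. With the block and DR_687, muscle rises numbered 6, ribosomal rises 7 (and 1 fall), mevalonate falls 5 and protein digestion falls 8. Of the contigs described singly by the stated rules 70 lost their calls with the block, while 34 stayed as they were, called or not. With the block and DR_687 these numbers were 17 and 86. Contigs under about 1 CPM, 15 to 19 counts, carry little weight, and 41 matched contigs were too low to test.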
